A study of Mus musculus with 177 samples.

Results

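The lungs of newborn mice that had breathed a low-oxygen gas and were then given 40% oxygen were compared with the lungs of mice kept in air. The members are the Affymetrix Mouse Gene 1.0 ST arrays titled as lung in these groups: 10 arrays labelled hypoxia with 40% oxygen and 9 labelled control with 21% oxygen, of 177 arrays of lung, brain and eye in the series. One of the 10 had the profile of brain and was left out, so 18 arrays were compared. The animals were C57BL/6 mice at postnatal day 7. Mice of the group named H40 here breathed an oxygen fraction of 0.08 for 120 min and 40% oxygen for the next 30 min. Mice of the control group, N21, breathed air for the 120 min (an oxygen fraction of 0.21) and for the 30 min (21% oxygen). All mice then spent 150 min in air before the lungs were taken. The other lung groups, H21, H60, H100 and N100, are named by the same rule, H for hypoxia and N for air in the first phase, and the number for the oxygen percentage of the second. The comparison asks which lung transcripts still differed from control about 3 h after the low oxygen ended, when 40% oxygen had been the gas of recovery.

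Cells sense low oxygen through the hypoxia-inducible factors (HIF), transcription factors whose alpha subunits are destroyed when oxygen is present and persist when it is scarce. HIF turns on glycolytic enzymes, vasodilator and vessel growth peptides and enzymes that modify collagen, and the proteins and transcripts decline again once oxygen returns. Hypoxia is also a stress that raises adrenal glucocorticoid, whose receptor drives a set of genes in lung epithelium, endothelium and mesenchyme. In the mouse the first postnatal weeks are the time when alveoli form, a process carried by mesenchymal growth signals, elastin deposition and vessel growth.

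The deposited values are log2 expression after RMA. A level below is such a log2 value, and a change is a difference of log2 values in a limma fit of 60 lung arrays that carries the run as a term. Runs are not named by the labels and were taken from the order of the value table, which has an earlier and a later block of columns. The earlier block, called the first run here, held 6 of the 9 H40 and 5 of the 9 N21 arrays, and limma called 11256 of 19937 genes between the runs. The labels do not tie an array to a mouse. Each array was treated as 1 animal because the series' design speaks of mice being randomized, and p-values measure the spread between these arrays. The 18 arrays correlated with the lung profile at 0.9845 to 0.996 and with brain at 0.7944 to 0.8074, across genes. Their type 2 alveolar cell genes averaged 10.91 to 11.41. The array labelled H40 replicate 10, the one left out, correlated at 0.8171 with lung and 0.9867 with brain, and its type 2 genes averaged 6.582. In these bulk samples fewer cells of a type and less RNA per cell cannot be told apart.

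A small number of transcripts passed the test between H40 and N21. Sgk1, Ankrd33b and Lims2 were higher in H40 and Ldb2 was lower. These 4 genes were 0.0201% of the 19937 tested at an adjusted p under 0.05 (0.015% higher, 0.00502% lower). At an unadjusted p under 0.05 there were 977 higher genes (4.9%) and 381 lower ones (1.91%), and the median change of all genes was 0.024. Of the 19937 genes 11978 had a change above 0, and 9702 did after quantile normalization again.

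Ldb2, a cofactor that binds LIM-domain transcription factors, had a lowest, median and highest level of 9.73, 10.02 and 10.30 in the N21 lungs and of 9.20, 9.38 and 9.89 in the H40 lungs. The groups overlapped, and every H40 array lay below the N21 mean. The change was -0.49 ± 0.09 (SE), to 0.711 of the N21 level, with an adjusted p of 0.0172 (limma). Sgk1, a kinase induced by glucocorticoid that acts on sodium channels of epithelium, ranged from 8.98 to 9.46 with a median of 9.14 in N21 and from 9.28 to 10.18 with a median of 9.52 in H40. All 9 H40 arrays were above the N21 mean, and the lowest of them lay within the N21 range. The change was 0.50 ± 0.10, or 1.42-fold (adjusted p = 0.0303, limma).

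Ankrd33b, an ankyrin repeat protein, ranged from 6.98 to 8.10 in N21 (median 7.67) and from 7.72 to 8.78 in H40 (median 8.11). Its change was 0.50 ± 0.10, or 1.42-fold (adjusted p = 0.0478, limma), and the groups overlapped between 7.72 and 8.10. Lims2, an adaptor of integrin adhesion sites, ranged from 8.47 to 9.05 in N21 (median 8.59) and from 8.70 to 9.35 in H40 (median 9.04). Its change was 0.43 ± 0.09, or 1.35-fold (adjusted p = 0.0478, limma). The top N21 value of Lims2 was that of replicate 2, at 9.05. The other 8 N21 lungs were at or below 8.65.

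**Figure D1:**
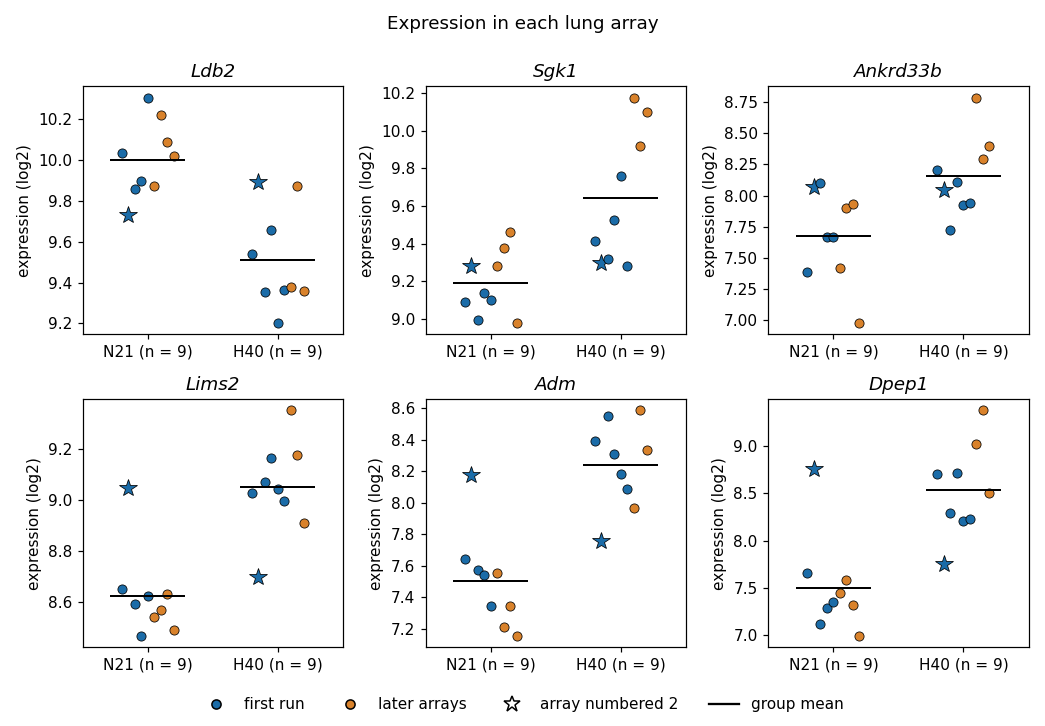
Expression (log2) of 6 genes in each of 9 N21 and 9 H40 lung arrays. Points are arrays, coloured by run, stars are the arrays numbered 2, and lines are group means. For Lims2, Adm and Dpep1 the N21 star lies in the H40 range and the H40 star is the lowest H40 point.

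The next genes by p did not pass the test and are given as values. On the higher side were Dpep1, a surface dipeptidase, at 1.06 ± 0.23 (adjusted p = 0.0651, limma), and Adm, the vasodilator peptide adrenomedullin and a HIF target, at 0.73 ± 0.16 (adjusted p = 0.0710, limma). Ntrk2, a neurotrophin receptor, was at 0.60 ± 0.13, and Vegfc, the growth factor of lymphatic vessels, at 0.45 ± 0.10. Pfkl, a phosphofructokinase of glycolysis, was at 0.42 ± 0.09 (adjusted p = 0.0651, limma). Each of these 5 was above the N21 mean in 9 of 9 H40 arrays.

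On the lower side were Slc27a6, a fatty acid transporter, at -0.61 ± 0.17, and Bmp5, a bone morphogenetic protein of lung mesenchyme, at -0.59 ± 0.15. Their adjusted p values were 0.250 and 0.181 (limma). Tafa1, a secreted peptide, was at -0.54 ± 0.15, and Ptprd, a receptor phosphatase, at -0.52 ± 0.14. Raver2, an RNA-binding protein, was at -0.37 ± 0.10. Adh1, which oxidises retinol, was at -0.36 ± 0.10, and Snhg5, the host of small nucleolar RNAs, at -0.25 ± 0.07. The size of the change in these 16 genes ran from 0.25 to 1.06, and the sign was the same in the first run and the later arrays for 16 of 16. The genes were chosen by a fit of both runs, so a shared sign largely follows from that choice.

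A single gene had H40 and N21 arrays that did not overlap at all, which is 0.00502% of those tested. It was Jag2, a Notch ligand, named after its values were seen. Its levels were 7.08 to 7.43 in N21 and 7.49 to 7.87 in H40, with a change of 0.34 ± 0.09 and an adjusted p of 0.183 (limma).

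The count of 4 depended on single arrays. It was 43 without N21 replicate 2 and 11 without H40 replicate 2. It was 0 without any one of H40 replicates 5, 7 and 9 and N21 replicates 5 and 7, and 1 without H40 replicate 4 or 8 or N21 replicate 6 or 9. It was 2 without H40 replicate 1 or 6 or N21 replicate 1 or 4, and 3 or 4 without H40 replicate 3 or N21 replicate 3 or 8. With array quality weights limma called 150 genes, 107 of them higher. In the first run alone the count was 0, and in the later arrays alone it was 9.

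Where each array lay on a hypoxia scale was read from 126 genes (77 higher, 49 lower) that limma called between the mean of H21, H60 and H100 and the group N100. No H40 or N21 array took part in that choice. The reading is the mean of the signed deviations of these genes from the array's run. It ran from -0.3681 to -0.1977 in 8 of the 9 N21 lungs and was 0.2967 in N21 replicate 2. In H40 it was above 0 in 8 of 9 lungs, with 0.3028 as the highest, and was -0.2567 in replicate 2. The H21 lungs read from 0.0326 to 0.2886, below N21 replicate 2, and the N100 lungs from -0.3672 to -0.1644, a range that holds H40 replicate 2. Both arrays had the lung profile, and both belonged to the first run. One of 12 H60 lungs and 1 of 11 H100 lungs also read below 0.

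**Figure D2:**
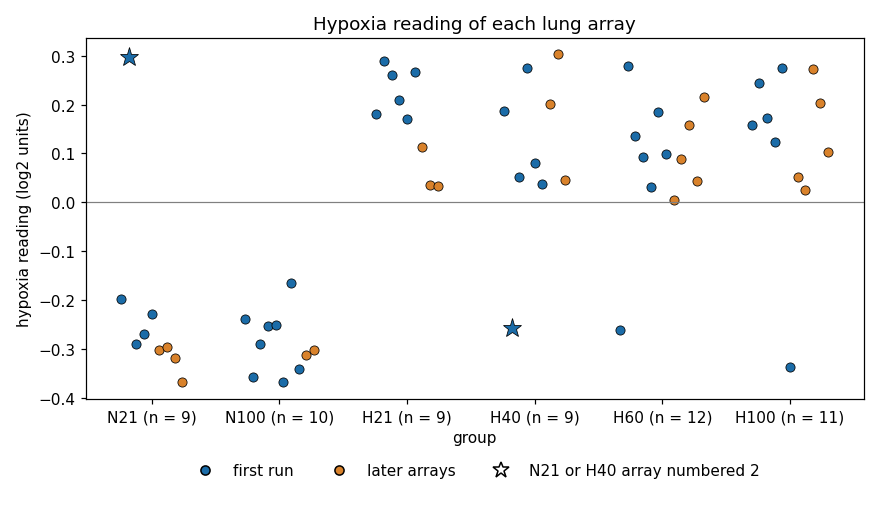
Hypoxia reading (log2 units, mean signed deviation of 126 genes from the array's run) of each lung array in 6 groups. Points are arrays, coloured by run, and stars are N21 and H40 replicate 2. The N21 star is at 0.2967 and the H40 star at -0.2567, each on the side of the other group. The genes were chosen from the H21, H60, H100 and N100 arrays shown here, so the gap between those groups is no finding.

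The comparison was repeated without both arrays numbered 2. They were singled out by their values, so the counts below are a description of the other 16 arrays and no independent support. limma then called 102 genes, 0.512% of those tested, with 65 higher (0.326%) and 37 lower (0.186%). The 4 genes named first were among them, and all 102 had the same sign with the 2 arrays included. Sign was also the same in both runs for all 102. The fit that called them pools both runs, so a shared sign largely follows from the choice. For 90 of the 102 genes N21 replicate 2 lay nearer the mean of the other H40 lungs than that of the other N21 lungs, and for 89 H40 replicate 2 lay nearer the N21 mean. The 8 H40 and 8 N21 lungs did not overlap for 23 of the 102 genes and for 0.196% of all genes tested. The 102 were called on these same 16 arrays, so the higher share follows from the choice of genes.

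Among the 65 higher genes the change was greatest for Fhl5, a LIM-domain cofactor of transcription. It ranged from 5.24 to 5.78 in the 8 N21 lungs and from 6.59 to 7.66 in the 8 H40 lungs, and the 2 groups lay apart. N21 replicate 2 was at 7.65 and H40 replicate 2 at 5.37. The change was 1.68 ± 0.28 (adjusted p = 0.000788, limma), or 3.21-fold, and 1.24 ± 0.31 with both arrays included. Dpep1 ran from 6.99 to 7.65 in N21 and from 8.20 to 9.37 in H40, a change of 1.32 ± 0.22. Adm ran from 7.16 to 7.65 and from 7.97 to 8.58, a change of 0.87 ± 0.17. Neither gene overlapped between these 8 and 8 lungs.

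Adamtsl2, a secreted protein that binds fibrillin microfibrils, changed by 1.05 ± 0.20 and Lox, which crosslinks elastin and collagen, by 0.75 ± 0.13. Tinagl1, a matrix glycoprotein, changed by 0.85 ± 0.16. Fmo2, a flavin monooxygenase abundant in lung, changed by 1.00 ± 0.18, and Xdh, which makes uric acid and superoxide, by 0.88 ± 0.15. Gpx3, a secreted glutathione peroxidase, changed by 0.88 ± 0.22, and Sult1a1, a sulfotransferase, by 0.79 ± 0.14. Gdpd2 was at 0.97 ± 0.17, Ndrg2 at 0.89 ± 0.18, Wfdc1 at 0.82 ± 0.17 and Ntrk2 at 0.75 ± 0.13. Cd163, the haemoglobin scavenger receptor of macrophages, was at 0.75 ± 0.17.

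Of 16 growth signals of lung mesenchyme, 3 were among the 37 lower genes, which were 0.186% of all genes tested. Wnt2, a ligand needed for lung formation, fell by 0.86 ± 0.17 on the log2 scale and Bmp5 by 0.68 ± 0.16. Fgf10, which drives budding and feeds epithelial progenitors, ranged from 7.41 to 7.89 in the 8 N21 lungs and from 6.88 to 7.28 in the 8 H40 lungs, with no overlap, and fell by 0.51 ± 0.12. Its levels in the arrays numbered 2 were 6.84 in N21 and 7.73 in H40. Adam12, a membrane metalloprotease, fell by 0.61 ± 0.14 and Unc5c, a netrin receptor, by 0.71 ± 0.17. Slitrk6, a synaptic adhesion protein, had the largest fall, 1.02 ± 0.23, to 0.494 of the N21 level. Slc27a6 fell by 0.80 ± 0.16, Tafa1 by 0.66 ± 0.15, Ptprd by 0.59 ± 0.15 and Ldb2 by 0.57 ± 0.09. The glycine receptor subunit Glrb fell by 0.65 ± 0.16, the phospholipase Plcb1 by 0.61 ± 0.15 and Atp13a4 by 0.56 ± 0.11. The hormone Stc1 fell by 0.53 ± 0.13 and the endocytic protein Amph by 0.53 ± 0.13. For these 30 genes the adjusted p in limma without both arrays ran up to 0.0452.

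H40 was then set beside the lungs given 21, 60 or 100% oxygen after the same hypoxia. limma called 0 genes for H40 minus H21, H60, H100 or the mean of the 3, with 504, 1113, 471 and 798 genes at an unadjusted p under 0.05 (2.53%, 5.58%, 2.36% and 4% of those tested). The counts stayed at 0 without both arrays numbered 2. Of the 102 genes, 2 had an unadjusted p under 0.05 against H21, 11 against H60, 2 against H100 and 5 against the mean of the 3. The genes with the smallest p are given as values. Against H21, Tbx18 was at 0.59 ± 0.16, Itgb5 at 0.22 ± 0.06, Mpv17l at -0.40 ± 0.10 and Gclc, which makes glutathione precursors, at -0.25 ± 0.07. Against H60, Ssxa1 was at 0.39 ± 0.09, Tmem70, an assembly factor of ATP synthase, at 0.28 ± 0.07, Phf11a at -0.51 ± 0.15 and Epb41l4a at -0.27 ± 0.08. Against H100, Sprr2e was at 0.41 ± 0.11, Crabp2 at 0.29 ± 0.08, Epb41l4a at -0.33 ± 0.08 and Abca4 at -0.19 ± 0.06. Against the mean of the 3, Ssxa1 was at 0.33 ± 0.08, Tmem70 at 0.22 ± 0.06, Epb41l4a at -0.29 ± 0.07 and Slc17a4 at -0.18 ± 0.05. All of these had adjusted p values of 0.782 or more (limma). On simulated data of this design the test called 82 to 90 of 100 genes changed by 0.5 in these 4 comparisons, and 77 of 100 for H40 minus N21. Those data held another 100 genes changed by 1, independent noise and no array out of place. So many changed genes loosen the adjusted threshold, so these rates do not give the power where few genes change. The unchanged genes called were 4 to 16 in the 4 comparisons and 19 for H40 minus N21.

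The changes of each group against N21 share the N21 arrays, replicate 2 among them, so they are given side by side with no measure of likeness. Sgk1 was at 0.49 in H21, 0.50 in H40, 0.55 in H60 and 0.48 in H100, and at 0.12 in N100, which had 100% oxygen and no hypoxia. Ldb2 was at -0.49, -0.49, -0.39 and -0.43 in the hypoxia groups in the same order and at -0.02 in N100. Lims2 was at 0.41, 0.43, 0.30 and 0.37, and at 0.03 in N100. Ankrd33b was at 0.49, 0.50, 0.37 and 0.37, and at 0.26 in N100. Dpep1 was at 1.22, 1.06, 1.00 and 1.11, and Adm at 0.69, 0.73, 0.73 and 0.89. For Pfkl the 4 values were 0.25, 0.42, 0.12 and 0.23, with H40 the highest. The difference of Pfkl between H40 and H60 was 0.31 ± 0.09, with an adjusted p of 0.782 (limma). The numbers of genes called against N21 were 32 in H21 (0.161%), 4 in H40, 7 in H60 (0.0351%), 5 in H100 (0.0251%) and 1 in N100 (0.00502%).

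**Figure D3:**
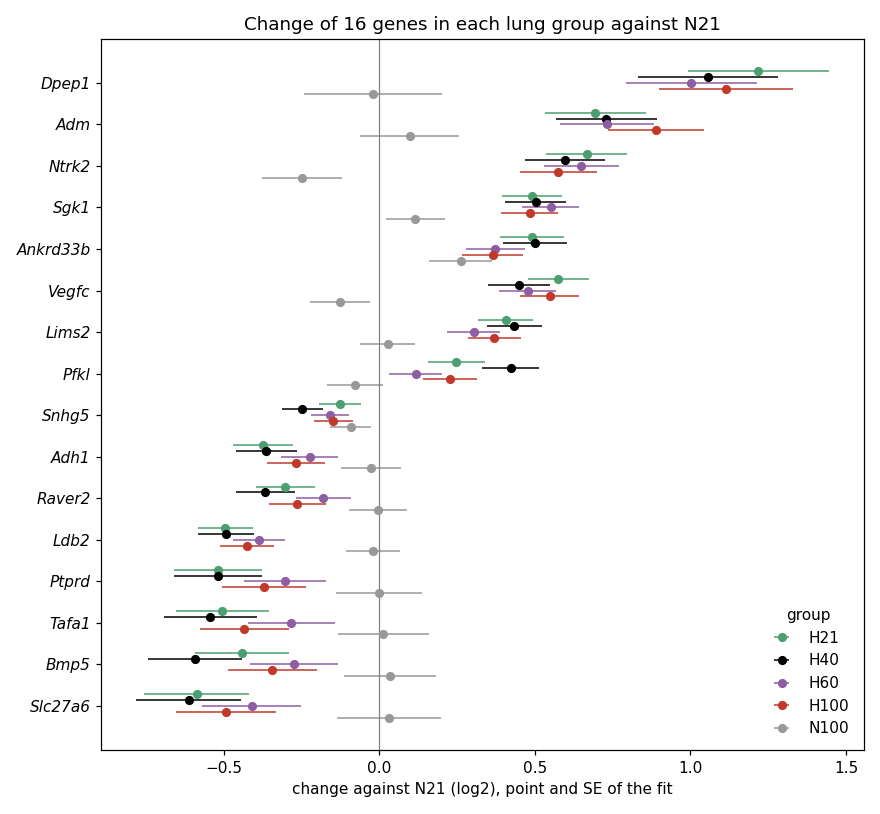
Change against N21 (log2) of the 16 genes named first in H21, H40, H60, H100 and N100 lungs. Points are estimates of the limma fit and bars are 1 SE. Among the 4 hypoxia groups Pfkl is highest in H40, at 0.42. All 5 groups are set against the same 9 N21 arrays, and the genes were chosen by H40 minus N21. A shared side of 0 is therefore no finding.

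HIF targets outside glycolysis formed a list of 23 genes. None was called with all 18 arrays. At an unadjusted p under 0.05, 9 were higher and 0 lower (39.1% against 4.9% of all genes), and the median change was 0.164 against 0.024 for all genes. The 9 higher with all 18 arrays included Adm, Hif3a at 0.50 ± 0.24, P4ha2 at 0.45 ± 0.12, Plod1 at 0.43 ± 0.11 and Bnip3 at 0.43 ± 0.13. The others of the 9 were Ddit4 at 0.26 ± 0.12, Ndrg1 at 0.25 ± 0.09, Egln3 at 0.23 ± 0.11 and Higd1a at 0.22 ± 0.11. Without 6 arrays of these groups that were rich in muscle genes, described further on, 3 members were higher at that p (2.07% of all genes). The median was then 0.098. P4ha2 and Plod1 are enzymes that hydroxylate collagen, and both rose together with Adm in the repeat without the arrays numbered 2 (limma, adjusted p at most 0.0220). Vegfa, the best known HIF target, was at -0.11 ± 0.10, and Hif1a at -0.06 ± 0.08. Of the 10 HIF subunits and oxygen sensing enzymes, 2 had an unadjusted p under 0.05 on the higher side and 1 on the lower. These were 20% and 10%, against 4.9% and 1.91% of all genes. The 2 higher ones, Hif3a and Egln3, are also counted among the 9 higher HIF targets.

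Glycolysis was described by 13 enzymes. None was called with all arrays. At an unadjusted p under 0.05, 8 were higher (61.5% against 4.9% of all genes) and 0 lower, and the median change was 0.252. Values were 0.51 ± 0.14 for Aldoa, 0.45 ± 0.17 for Hk2, 0.42 ± 0.09 for Pfkl and 0.37 ± 0.12 for Tpi1. Pkm was at 0.30 ± 0.09, Ldha, which makes lactate, at 0.26 ± 0.08, Pfkp at 0.25 ± 0.09 and Pgam1 at 0.19 ± 0.09. Pfkl ranged from 8.22 to 8.56 in N21 (median 8.28) and from 8.48 to 9.04 in H40 (median 8.70), and the groups overlapped by the lowest H40 arrays. Pfkl was the 1 member called without the arrays numbered 2 (0.44 ± 0.10, adjusted p = 0.0152, limma). The list's median against N21 was 0.117 in H21, 0.075 in H60 and 0.111 in H100. Between H40 and the mean of these groups the median was 0.165, with 8 of 13 enzymes higher at an unadjusted p under 0.05 against 3.07% of all genes. The 15 transporters and regulators of glucose and pyruvate had a median change of 0.176. At an unadjusted p under 0.05, 6 of them were higher (40% against 4.9% of all genes). Among these were Pdk2 at 0.34 ± 0.11, Gbe1 at 0.30 ± 0.12 and the glucose transporter Slc2a1 at 0.23 ± 0.10.

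These glycolytic values stood beside signs of muscle in some samples. The mean of 12 skeletal muscle genes was above 7 in 4 of 9 H40 arrays (7.566 to 8.875) and in 2 of 9 N21 arrays (7.294 and 9.621), and at or below 6.32 in the others. The list's median change was 0.557, with 1.081 in the first run and -0.140 in the later arrays. The mean of 10 heart genes ran from 7.605 to 10.993 in H40 and from 7.693 to 10.0 in N21, with a median change of 0.603. Without the arrays above 7 in any group, the median of the glycolysis list was 0.191 against N21 and 0.041 against the mean of the other hypoxia groups, and the enzymes higher at an unadjusted p under 0.05 were 3 and 0 (2.07% and 1.72% of all genes). Pfkl was then at 0.31, Aldoa at 0.27, Pkm at 0.26, Tpi1 at 0.19 and Ldha at 0.10. The list of glucose and pyruvate transporters and regulators had a median of 0.134 without those arrays, with 1 member at that p in place of 6, and its median with them was 0.235 in the first run and 0.049 in the later arrays. The 27 genes of oxidative phosphorylation had a median change of 0.117 against N21, with 1 member higher at an unadjusted p under 0.05 (3.7% against 4.9% of all genes). That median was 0.210 in the first run, -0.018 in the later arrays and 0.015 without the muscle-rich arrays. Against the mean of the other hypoxia groups 27 of 27 genes of this list were above 0, as were 11062 of all 19937 genes. The list's median was 0.205, with 15 members higher at an unadjusted p under 0.05 (3.07% of all genes). It was 0.153 with 3 such members without the muscle-rich arrays (1.72% of all genes). Those arrays were left out by skeletal muscle genes alone. Without them the heart genes still had a median of 0.282 against N21. Against the mean of the other hypoxia groups it was 0.433, with 10 of 10 heart genes above 0, against 9884 of all 19937 genes. The part of muscle in these values was not tested beyond this.

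**Figure D4:**
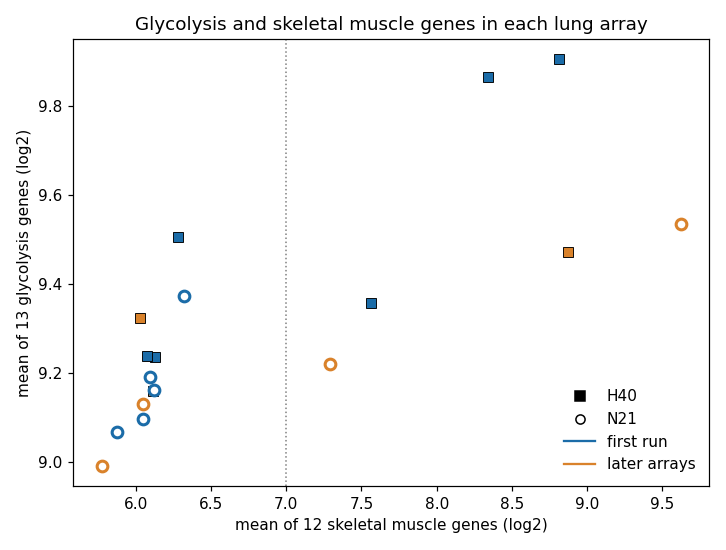
Mean of 13 glycolysis genes against mean of 12 skeletal muscle genes (both log2) in 9 H40 arrays (squares) and 9 N21 arrays (open circles), coloured by run. Each point is 1 array, and the dotted line marks 7. The 2 H40 arrays with the highest glycolysis means, 9.906 and 9.865, lie to the right of that line.

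Promoter sequence of these genes was read from the RefSeq table of mouse build GRCm38.p6, as the 250 bases before each annotated start. The HIF core was searched as ACGTG or GCGTG on both strands, and matches of the 2 can overlap on opposite strands. It occurred in 38.595% of the 32851 windows and in at least 1 window of 49.875% of the 15613 tested genes with a window. It occurred for 11 of 13 glycolysis genes, 17 of 18 other HIF targets with a window, and 7 of the 12 genes with a window among the 16 named first. A match is a description of the letters only. The windows of the HIF targets Adm and P4ha2 and of the glycolytic Pfkl are shown because these genes were called higher without the arrays numbered 2. They lie at chr7:110627407-110627656 (plus strand), chr11:54100674-54100923 (plus strand) and chr10:78009808-78010057 (minus strand). Capitals mark the core, which reads CACGC or CACGT where it lies on the opposite strand.
Adm: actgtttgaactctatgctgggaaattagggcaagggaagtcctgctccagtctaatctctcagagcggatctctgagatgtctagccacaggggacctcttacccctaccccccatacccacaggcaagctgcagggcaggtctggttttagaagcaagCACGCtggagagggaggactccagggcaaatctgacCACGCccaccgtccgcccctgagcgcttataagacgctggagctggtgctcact
P4ha2: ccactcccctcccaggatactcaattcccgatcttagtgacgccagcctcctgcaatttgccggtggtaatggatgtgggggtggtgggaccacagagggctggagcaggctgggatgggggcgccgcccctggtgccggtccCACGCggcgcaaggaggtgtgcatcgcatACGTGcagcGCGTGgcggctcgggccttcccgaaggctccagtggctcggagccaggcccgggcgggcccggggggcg
Pfkl: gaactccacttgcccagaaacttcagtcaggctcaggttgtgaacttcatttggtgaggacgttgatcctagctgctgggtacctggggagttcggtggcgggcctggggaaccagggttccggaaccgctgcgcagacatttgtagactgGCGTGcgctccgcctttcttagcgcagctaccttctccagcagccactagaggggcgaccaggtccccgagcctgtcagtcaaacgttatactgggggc
Adm holds 2 matches, 90 and 54 bases before the start, P4ha2 holds 3 within 107 bases of it, and Pfkl holds 1 at 99 bases.

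The changes of all 19 glucocorticoid-responsive genes were above 0, as were those of 11978 of all 19937 genes. The list's median was 0.321, and 8 members were higher at an unadjusted p under 0.05 against 4.9% of all genes. Of the 8, Ddit4 is also counted among the higher HIF targets above. Sgk1 was the 1 member called. Glul, glutamine synthetase, was at 0.38 ± 0.10, Sult1a1 at 0.56 ± 0.16 and Tsc22d3, the anti-inflammatory protein GILZ, at 0.39 ± 0.18. Klf9, a transcription factor, was at 0.39 ± 0.17 and the phosphatase Dusp1 at 0.32 ± 0.14. The classical targets Fkbp5 and Zbtb16 were at 0.42 ± 0.23 and 0.77 ± 0.50. Without the arrays numbered 2, Sgk1, Glul and Sult1a1 were called, and Glul did not overlap between the 8 N21 lungs (10.77 to 11.13) and the 8 H40 lungs (11.33 to 11.84). The list's median was 0.170 in the first run and 0.535 in the later arrays. Without the muscle-rich arrays it was 0.224, with 5 members higher at that p (2.07% of all genes). Against N21 the medians of the other groups were 0.386 in H21, 0.253 in H60, 0.352 in H100 and -0.023 in N100. The glucocorticoid receptor motif was searched on both strands as GNACA and TGTNC with NNN between them. It occurred in 0.387% of all windows and in at least 1 window of 0.416% of the 15613 tested genes with a window. In the list it occurred for 3 of 16 genes with a window, and in 1 of 6 windows of Sgk1. That Sgk1 match, in capitals with 8 bases on each side, lies at chr10:21993694-21993722 (plus strand, GRCm38.p6) and is shown because Sgk1 was called with all arrays.
Sgk1: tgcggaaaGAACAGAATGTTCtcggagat

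The 15 core clock genes include repressors and activators of opposite phase, and their changes lay on both sides of 0. At an unadjusted p under 0.05, 3 were higher and 4 lower (20% and 26.7%, against 4.9% and 1.91% of all genes). The higher ones were Cry1 at 0.34 ± 0.08, Arntl, the clock activator BMAL1, at 0.29 ± 0.07 and Cry2 at 0.19 ± 0.06. The lower ones were Nr1d1 and Nr1d2, repressors of Arntl, at -0.38 ± 0.14 and -0.27 ± 0.09, Dbp at -0.23 ± 0.10 and Per3 at -0.21 ± 0.08. None passed the test with all arrays, and without those numbered 2 limma called Arntl (0.37 ± 0.07) and Cry1 (0.43 ± 0.08). The time of day of sampling is not given in the sources used here.

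Growth signals of lung mesenchyme (16 genes) had a median change of -0.061. At an unadjusted p under 0.05, 1 member was higher and 4 were lower (6.25% and 25%, against 4.9% and 1.91% of all genes). The lower ones were Bmp5, Wnt2, Fgf10 and the hedgehog receptor Ptch1 at -0.19 ± 0.09, and the higher one was Fgf18, a growth factor of alveolar formation, at 0.29 ± 0.12. Bmp5, Wnt2 and Fgf10 passed the test in the repeat, at -0.68, -0.86 and -0.51. Without the muscle-rich arrays the list's median was -0.018, against 0.016 for all genes. At an unadjusted p under 0.05, 1 member was then lower and 0 higher, against 162 and 412 of all 19937 genes. Of 13 genes of elastic matrix and collagens, 12 were above 0, and 11 after quantile normalization again. Of all 19937 genes these counts were 11978 and 9702. Lox (0.55 ± 0.14), Fbln2 (0.40 ± 0.11), Eln, which encodes elastin (0.34 ± 0.12), and Col4a1 (0.26 ± 0.10) had an unadjusted p under 0.05. These 4 genes were 30.8% of the list, against 4.9% of all genes on the higher side. Lox and Fbln2 were called in the repeat. Without the muscle-rich arrays Lox and Fbln2 kept that p. Lung fibroblast genes had a median of 0.129, with 9 of 12 above 0 and 2 higher at an unadjusted p under 0.05 (16.7% against 4.9% of all genes). Their mean level ran from 10.3 to 11.005 in N21 and from 10.52 to 11.094 in H40. Their part in the matrix values was not tested. In the list of VEGF and angiopoietin signals (14 genes, median -0.023) Vegfc was at 0.45 ± 0.10, Pgf, placental growth factor, at 0.40 ± 0.14, and Flt4, the receptor of Vegfc, at -0.19 ± 0.09. Vegfc alone was called in the repeat, at 0.55 ± 0.10.

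Of 28 DNA replication genes 26 were below 0, while 11978 of all 19937 genes were above 0. The list's median was -0.155, with 4 members at an unadjusted p under 0.05 against 1.91% of all genes on the lower side. These were Pole, a replicative polymerase, at -0.37 ± 0.12, the helicase subunits Mcm6 at -0.28 ± 0.11 and Mcm4 at -0.28 ± 0.12, and Rfc3, a clamp loader subunit, at -0.19 ± 0.08. The median was -0.058 in the first run and -0.317 in the later arrays. In the repeat 11 members had an unadjusted p under 0.05 on the lower side, against 600 of all 19937 genes, and Rfc3, at -0.32, was the 1 called. The median of the list was -0.205 in H21, -0.162 in H60 and -0.192 in H100 against N21, and -0.040 in N100. The 15 mitosis genes had a median of 0.042 and 0 members at that p. Heat shock genes had a median of 0.279, with 5 of 12 higher at an unadjusted p under 0.05 (41.7% against 4.9% of all genes). Hspa1a was at 0.75 ± 0.36 and the small heat shock protein Hspb1 at 0.61 ± 0.25. The other hypoxia groups had medians of 0.169 to 0.224 for this list and N100, which had no hypoxia, 0.152. Without the muscle-rich arrays the H40 median was 0.134, with 0 members higher at an unadjusted p under 0.05 (2.07% of all genes). Immediate-early genes (12) and inflammatory cytokines and chemokines (14) had 0 members at an unadjusted p under 0.05.

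The lists of type 2 and type 1 alveolar cells, club and ciliated cells, endothelium, lymphocytes and erythroid cells had medians of -0.061 to 0.243 and 0 members at an unadjusted p under 0.05. Sftpc, the surfactant protein of type 2 cells, was at 0.01 ± 0.04. Beside the sign counts that follow, 11978 of all 19937 genes were above 0. Smooth muscle and pericyte genes were above 0 in 10 of 10, with a median of 0.184 and 3 members higher at that p (30% against 4.9% of all genes). These were Tagln at 0.22 ± 0.08, Cnn1 at 0.27 ± 0.13 and Cspg4, a pericyte proteoglycan, at 0.27 ± 0.09. Without the muscle-rich arrays 1 member of that list was at that p. Mesothelial genes, markers of the lung's outer lining, were above 0 in 6 of 6, with a median of 0.222. At an unadjusted p under 0.05, 3 of these 6 were higher (50% against 4.9% of all genes), and 1 without the muscle-rich arrays. The 3 were Upk1b at 0.45 ± 0.22, Wt1 at 0.28 ± 0.09 and Krt19 at 0.22 ± 0.10. The mean level of the mesothelial list ran from 8.117 to 8.626 in N21 and from 8.279 to 8.813 in H40, so the groups overlapped. The higher fibroblast genes were Inmt, a methyltransferase, at 0.70 ± 0.28 and Plin2, a lipid droplet protein, at 0.16 ± 0.08. Neutrophil genes were above 0 in 12 of 12 with a median of 0.317. The 2 higher at that p (16.7% against 4.9% of all genes) were led by the collagenase Mmp8 at 0.77 ± 0.26. The mean level of the neutrophil list ran from 6.244 to 7.426 in H40 and from 5.972 to 7.481 in N21. Thymus genes (median 0.315) were high in 1 array, H40 replicate 3, where they averaged 7.89. Fat genes had a median of 0.273, with 0.670 in the first run and -0.268 in the later arrays, and 0.110 without the muscle-rich arrays. Genes of thyroid and oesophagus averaged above 7 in H40 replicates 4, 6 and 7 and in N21 replicate 6. Without the muscle-rich arrays the called genes were at 0.45 for Sgk1, 0.33 for Ankrd33b, 0.30 for Lims2 and -0.45 for Ldb2, and limma called 0 genes among these fewer arrays. With the mean of the muscle genes as a term in the fit of all arrays it called 12, and the 4 genes were among them.

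**Figure D5:**
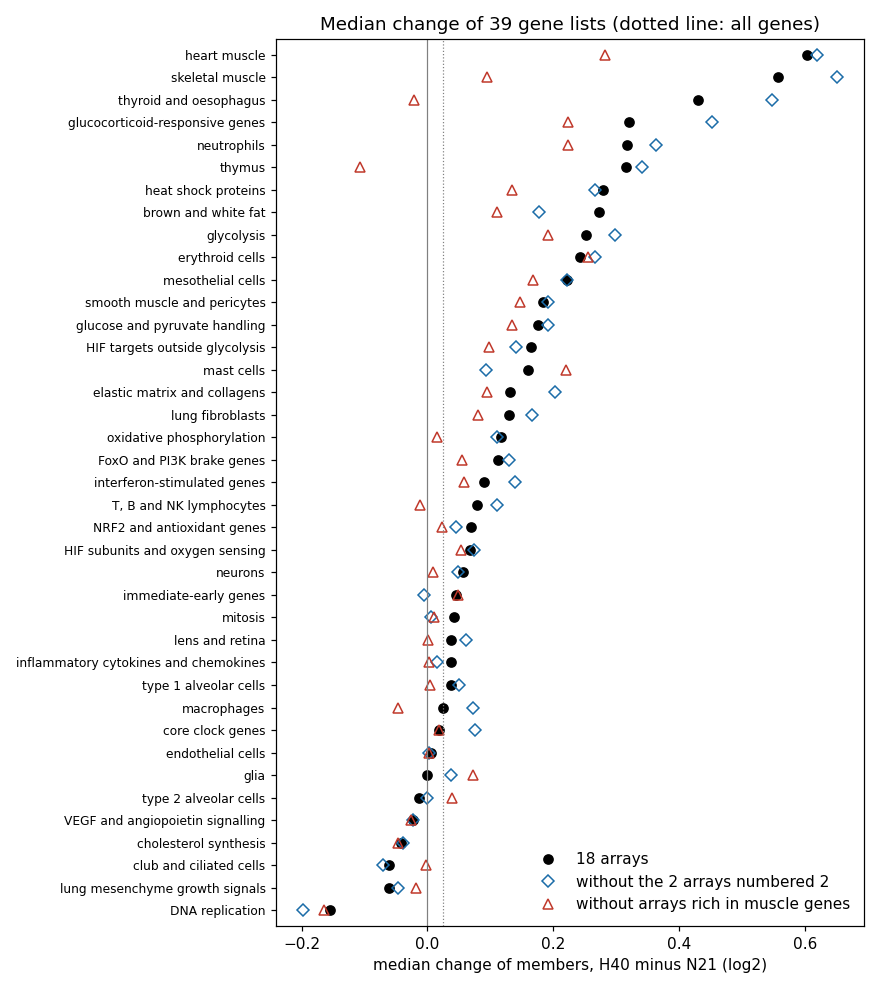
Median change (H40 minus N21, log2) of the members of 39 gene lists with all 18 arrays, without the 2 arrays numbered 2 and without arrays rich in muscle genes. Each symbol is 1 median, and the dotted line is the median of all genes, 0.024. Glucocorticoid-responsive genes lie at 0.321, 0.452 and 0.224, and skeletal muscle genes at 0.557, 0.651 and 0.094.

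The difference between runs in the H40 minus N21 change was tested as an interaction, and limma called 0 genes (672 at an unadjusted p under 0.05). The smallest p values belonged to Zfy2 (a Y-linked gene) and Kcnj15, with a greater change in the later arrays by 0.71 ± 0.16 and 0.53 ± 0.16, and to Prss58 and Cinp, where the later change minus the first was -0.57 ± 0.16 and -0.29 ± 0.08. By Xist and Y-linked genes 1 of 6 H40 and 0 of 5 N21 arrays of the first run read as male, and 1 of 3 and 1 of 4 later ones. For the genes named first the later arrays had the greater size of change in Sgk1 (0.31 and 0.79), Ankrd33b (0.21 and 0.93), Dpep1 (0.68 and 1.63) and Adm (0.56 and 0.98), while Ldb2 was at -0.46 and -0.51. The first run holds both arrays numbered 2.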

How the data were processed

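Each array took 10 ng of RNA, which was labelled with biotin, per the labels' protocols. Their extraction text names a blood RNA kit after a Ficoll gradient although the tissue was solid. The authors deposited log2 values after RMA, per the submitters' processing notes. RMA corrects background, equalizes arrays and summarizes probes, and its version is not given in the sources used here. The arrays carry no read depth, and their number limits the precision. Of 34760 probe sets 21640 have exactly 1 symbol, 1321 several and 11799 none in the platform annotation, and 21553 matched RefSeq. The probe set with the highest lung mean stood for a gene, for 19937 genes in all. Limma 3.58.1 gave the changes and two-sided tests (R 4.3.3, with data.table at version 1.17.8), with 6 lung groups and the run as terms, and called at a Benjamini-Hochberg adjusted p under 0.05 over all genes. A value after ± is the SE that limma gives. The text names up to 15 called genes per direction by size, filled to 8 by smallest p, and for lists the called and the largest members; predicted genes, chemosensory receptors and small RNAs were skipped. Lists (39, with 488 of 523 entries matched), members and alternatives were chosen with earlier results of these data known. The fit was tested on simulated data. Replicate numbers occur in both groups, and the deviations of same-numbered arrays correlated at -0.396 to 0.431, so the numbers were not taken as pairs.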

Additional observations from a re-analysis of the deposited data

Results flagged for a closer look

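Arrays that stood apart from the other 8 of their group, by the gap to the nearest of them relative to the whole range, were looked for in 78 groups of values, those of the named genes and of the hypoxia reading. There were 16 such values, all in the arrays numbered 2. Chance marks about 1 in 20 groups of unselected values, a rate that does not apply to this count. Those arrays had already been singled out by their expression, and 9 of the 14 gene values belong to the 22 genes named only because they were called without them, which favours genes in which the other lungs lay close together. The 16 values are therefore a description. In N21 replicate 2 they were Fhl5 at 7.65, Adamtsl2 at 9.35, Lims2 at 9.05, Dpep1 at 8.75 and Adm at 8.18, above the other N21 lungs. Below the other N21 lungs were Adh1 at 12.35, Slc27a6 at 9.38, Wnt2 at 7.24, Fgf10 at 6.84 and Atp13a4 at 5.49, and its hypoxia reading of 0.2967 was above theirs. In H40 replicate 2 Adam12 at 8.24, Fgf10 at 7.73 and Atp13a4 at 6.36 were above the other H40 lungs, and Fhl5 at 5.37 and the hypoxia reading of -0.2567 were below. The values of one array are not independent of each other, and the labels of the 2 arrays were not tested by any other measure than expression.

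Outside the 18 arrays, the array labelled Lung H40 replicate 10 had neuron genes at a mean of 10.493, against 5.322 to 5.682 in the 18 lung arrays. The array labelled Eye H40 replicate 9 had type 2 alveolar genes at 9.697, against 6.485 to 6.751 in the N21 eyes, and correlated at 0.9574 with lung and 0.8816 with eye.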

How the results depend on the processing

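The count of genes called for H40 minus N21, 4 with all settings as reported, was 1 with no run term, 1 with the run as a random block, 0 in the first run alone and 9 in the later arrays alone. It was 2 with H40 replicate 10 included, 9 without the dimmest 40% of genes, 2 after quantile normalization again, 1 with every probe set tested and 0 with only the H40 and N21 arrays in the fit. Array quality weights gave 150. Leaving out both arrays numbered 2 gave 102, and each array in turn 0 to 43. A sex term gave 3, and a trended robust variance 4. Added after seeing the data, weights without both arrays numbered 2 gave 482, leaving out muscle-rich arrays 0 and a muscle term 12. With the replicate number as a block the count was 0. Same-numbered arrays did not deviate together, and 1 of 9 H40 arrays correlated best with its own number in N21. For H40 minus H21, H60, H100 or their mean, and for the difference between runs, the count was 0 in every alternative run. Over 35 alternatives, which share arrays with the fit that chose them, the 16 genes named first kept their sign. Ldb2 ran from -0.61 to -0.45 and passed the threshold in 25, Sgk1 from 0.28 to 0.79 in 18, Ankrd33b from 0.21 to 0.93 in 13 and Lims2 from 0.26 to 0.59 in 8. The cause of these shifts was not tested.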

Other observations

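Some genes outside the lists and rules above were picked out after their values were seen, because the 8 H40 and 8 N21 lungs other than the arrays numbered 2 did not overlap. Aqp1, the water channel of lung capillaries, lay between 11.1 and 11.67 in N21 and between 11.67 and 12.17 in H40, a change of 0.49 ± 0.10 (adjusted p = 0.0039, limma). Timp3, an inhibitor of matrix metalloproteases, lay between 9.95 and 10.54 and between 10.61 and 11.21, a change of 0.46 ± 0.10 (adjusted p = 0.0114, limma). Spon1, a matrix protein, changed by 0.49 ± 0.10 and Jam2, an adhesion molecule of endothelial junctions, by 0.44 ± 0.10. With the arrays numbered 2 included the changes were 0.37 for Aqp1, 0.32 for Timp3, 0.39 for Spon1 and 0.31 for Jam2, and none of the 4 passed the test.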
